A study of Mus musculus with 7 samples.

Results

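The IL-1 family genes examined here are 9 genes chosen by symbol: the ligands Il1a, Il1b and Il18, the antagonists Il1rn and Il18bp, and the receptor genes Il1r1, Il1r2, Il1rap and Il18r1. All 9 were found, each once, among the 17920 genes of the expression table. RNA levels were measured as FPKM (fragments per kilobase of transcript, relative to all mapped fragments of the library) in spleens of 7 mice of strain C57BL/6, aged 8 weeks. Every mouse had received lipopolysaccharide (LPS, a bacterial cell wall component) at 20 mg/kg into the abdominal cavity. Spleens were taken 90 min after LPS from 2 wild-type and 2 GdX-deficient mice, and 6 h after it from 2 wild-type mice and 1 GdX-deficient mouse. The GdX-deficient mice are labelled GdX-/- as animals and GdX-/Y in the series title. GdX is the X-linked gene Ubl4a, which encodes a ubiquitin-like protein, and how it was disrupted is not given in the sources used here. No uninjected spleen was analysed here. The samples are called splenocytes, but the protocol describes whole spleen crushed before RNA extraction, so fewer cells of a type and less RNA per cell cannot be told apart.

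IL-1 alpha and IL-1 beta are alarm cytokines that bind the same receptor, IL-1R1, which signals only with the accessory protein IL-1RAP. The receptor antagonist IL-1RN occupies IL-1R1 without signalling, and IL-1R2 is a decoy receptor that binds ligand and sends no signal. IL-18 acts through IL-18R1, mainly on natural killer cells and T cells, and is neutralised in fluids by IL-18BP. LPS induces Il1b and Il1rn in macrophages, monocytes and neutrophils. Protein release of IL-1 beta and IL-18 also needs caspase-1 cleavage, which RNA levels do not measure.

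In wild-type spleen, Il1b fell and the decoy receptor gene Il1r2 rose between 90 min and 6 h. Il1b went from 346 ± 43.8 to 97.2 ± 24.9 FPKM and Il1r2 from 17.8 ± 2.38 to 42.3 ± 0.0636 FPKM (SD, n = 2 each), with adjusted p-values in limma of 0.0175 and 0.0396. The Il1r2 call was lost in 5 alternative settings, among them without either wild-type library at 90 min (adjusted p of 0.0928 and 0.191), and the Il1b call in 1, without a filter on low values (0.0797). The antagonist to agonist ratio, Il1rn over the sum of Il1a and Il1b, was under 0.5 in each wild-type library at 90 min and above 1 in each at 6 h. In the single GdX-deficient library at 6 h it was 0.565, near the values of both GdX-deficient libraries at 90 min. Il1b made up most of the sum in every library. The change of the ratio with time was not tested, and its mean genotype difference had an exact permutation p of 0.667. No member passed the threshold between genotypes at either time or with the times combined.

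**Figure D1:**
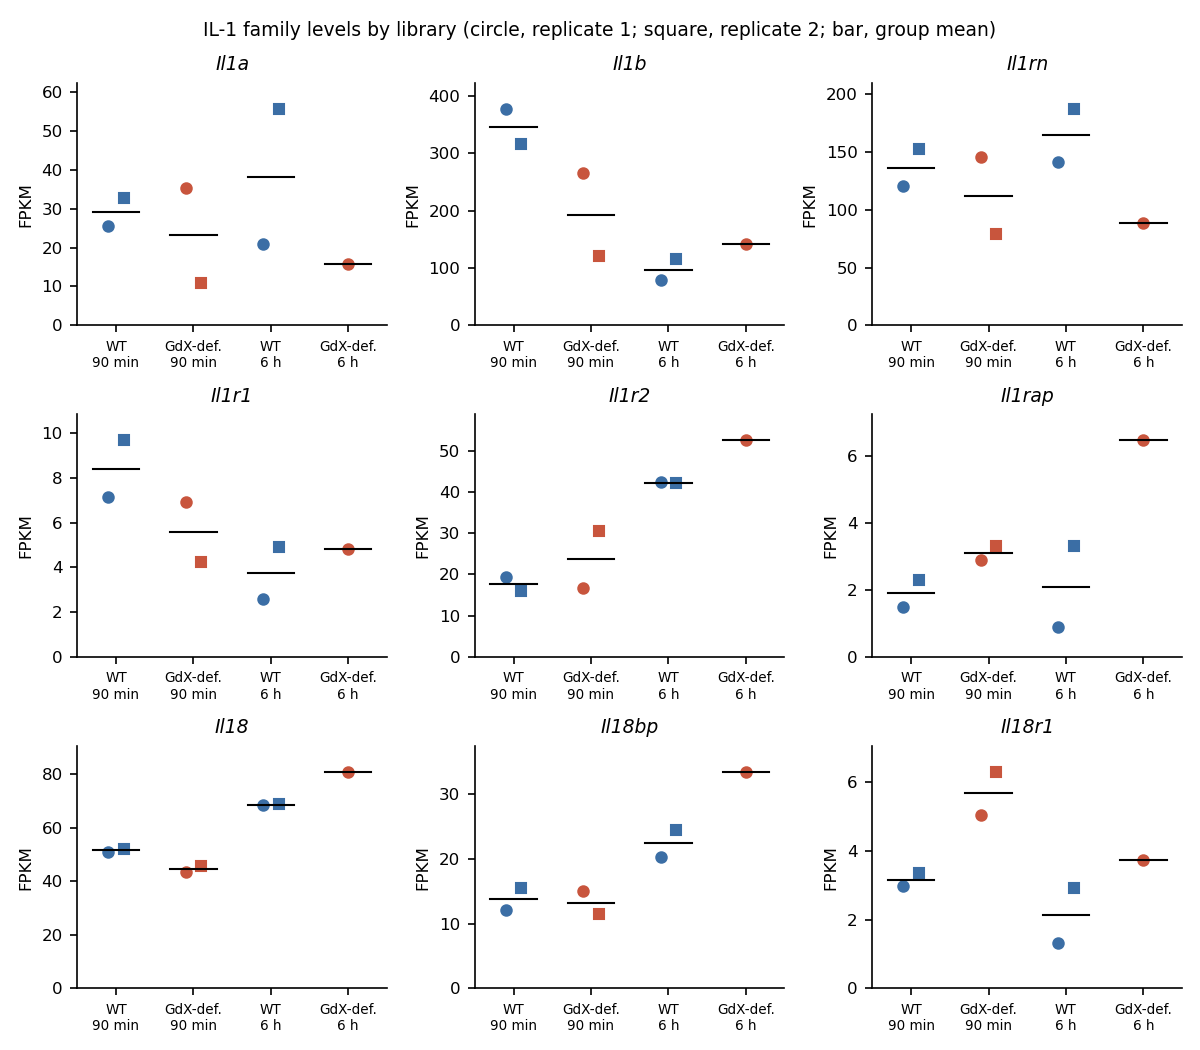
Level of each member in FPKM (linear axes from 0) by genotype and time, with 1 point per library and a bar at the group mean. Il1b is highest in the wild-type libraries at 90 min, at 377 and 315 FPKM, and Il1r2, Il18 and Il18bp are higher in every library at 6 h than in any at 90 min, a pattern that 13.5% of all tested genes share.

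FPKM is scaled to transcript length, so levels can be set side by side between genes. Il1b, Il1rn and Il18 had the highest group means of the 9 genes in all 4 groups, and Il1b was the highest of all except in wild type at 6 h, where Il1rn led. Il1r1, Il1rap and Il18r1 had the lowest means in all 4 groups, between 1.90 FPKM (Il1rap, wild type at 90 min) and 8.42 FPKM (Il1r1, wild type at 90 min). Some neighbours in this order overlapped between libraries. Il1b and Il1rn overlapped in GdX-deficient spleen at 90 min but not in wild type, and Il1a overlapped with Il1r2 in GdX-deficient spleen at 90 min and in wild type at 6 h.

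The estimated depth was close to even, at about 19100000 to 21200000 fragments per library. The member value with the least support, Il1rap in wild-type replicate 1 at 6 h, rested on about 67 fragments. Ubl4a itself was listed at 5.62 and 7.5 FPKM in wild type at 90 min, where the GdX-deficient libraries had 4.03 and 5.69 FPKM. At 6 h it was at 11.9 and 14.01 FPKM in wild type and 10.6 FPKM in the GdX-deficient library. The entry Gm44504, which overlaps Ubl4a, was at 1.86 FPKM or less in the GdX-deficient and at 14.5 FPKM or more in the wild-type libraries. Markers of the spleen were present in every library, with summed levels of 486 to 2117 FPKM for 7 B cell genes, 136 to 369 FPKM for 7 T cell genes and 729 to 1398 FPKM for 9 red pulp macrophage genes. Neutrophil markers stood apart in replicate 2 of the GdX-deficient group at 90 min, where 10 genes summed to 4901 FPKM, against 2661 FPKM in the lone GdX-deficient library at 6 h and 814 to 1285 FPKM in the other 5 libraries. Globin genes took 7.73% to 30.9% of the FPKM sum, and the replicates of wild type differed along transcript length (Spearman's rho across genes of -0.446 at 90 min and -0.591 at 6 h).

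Il1b, which encodes the inducible secreted agonist, stood at 377 and 315 FPKM in wild-type and 265 and 120.3 FPKM in GdX-deficient libraries at 90 min. At 6 h it stood at 79.6 and 115 FPKM in wild type and 141 FPKM in the GdX-deficient library. At 90 min both GdX-deficient libraries lay below both of wild type, and at 6 h the GdX-deficient library lay above both, so the order of the genotypes was opposite at the 2 times. The log2 fold change on the log2(FPKM + 1) scale was -0.95 at 90 min (SE 0.37, adjusted p = 0.621 in limma) and 0.56 at 6 h (SE 0.46, adjusted p = 0.434 in limma). Neither passed the threshold of 0.05. The libraries of 7.79% of all tested genes stood apart at both times in such opposite directions. The difference between these effects was 1.504 (SE 0.59, adjusted p = 0.422 in limma). Replicate 2 of the GdX-deficient group at 90 min carried much of the 90 min difference, which was -0.38 without it and -1.51 without replicate 1. This is also the library with the highest sum of neutrophil markers, and the markers' part in the Il1b level was not tested.

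The fall of Il1b with time was measured mainly in wild type. The wild-type mean at 90 min was 3.56-fold that at 6 h, with a log2 fold change of -1.84 (SE 0.37, adjusted p = 0.0175 in limma). In GdX-deficient spleen the 6 h value of 141 FPKM lay between the 90 min libraries, and the log2 fold change was -0.34 (SE 0.46, adjusted p = 0.848 in limma). The direction there depended on the 90 min library, at -0.90 without replicate 2 and 0.23 without replicate 1. Markers of several cell types were lower too at 6 h in wild type, where 6.32% of all tested genes fell. Of the monocyte genes 3 of 6 fell, of the red pulp macrophage genes 5 of 9, of the dendritic cell genes 5 of 6, of the B cell genes 3 of 7, of the T cell genes 4 of 7 and of the red cell genes 6 of 9, and 0 rose in any of these lists. Of the 10 neutrophil genes 0 fell and 0 rose in limma (2 at an unadjusted p under 0.05), with 5 higher and 5 lower. The monocyte genes summed to 145 and 177 FPKM in the earlier libraries and 106 and 108 FPKM in the later ones, and the red pulp macrophage genes to 1359 and 1398 FPKM and to 878 and 729 FPKM. None of the monocyte or red pulp macrophage genes was listed at 0, and the markers' part in the fall of Il1b was not tested. Without a filter on low values, the wild-type fall had a limma adjusted p of 0.0797. Over all settings it lay between 0.000211 and 0.0797, and the log2 fold change stayed between -2.10 and -1.58.

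Il1a, whose product is active without cleavage and is largely retained in the cell, was listed at 25.5 and 32.8 FPKM in wild-type and 35.4 and 10.8 FPKM in GdX-deficient libraries at 90 min. The 6 h values were 20.8 and 55.6 FPKM in wild type and 15.7 FPKM in the GdX-deficient library. The replicates of a group differed by over 2-fold in wild type at 6 h and by over 3-fold in GdX-deficient spleen at 90 min, more than the genotypes did at 90 min. The GdX-deficient library at 6 h lay below both of wild type (log2 fold change -1.08, SE 0.68, limma adjusted p = 0.319). Without wild-type replicate 1 at 6 h, the value was -1.76, and without replicate 2 it was -0.39. Each of these sets 1 library against 1.

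The ratio between these ligands was lower in both wild-type libraries at 6 h than in both at 90 min, a change that was not tested. Il1b exceeded Il1a by 14.8-fold and 9.62-fold in the wild-type libraries at 90 min and by 3.82-fold and 2.06-fold at 6 h. In GdX-deficient spleen the ratio was 7.49 and 11.1 at 90 min and 9.01 at 6 h. The wild-type libraries of the 2 times did not overlap, and the GdX-deficient value at 6 h lay within the range of its own 90 min libraries and above both wild-type values at 6 h. The genotype difference in log2 ratio was -0.39 at 90 min and 1.68 at 6 h, with a mean of 0.65 (exact permutation p = 0.5, two-sided, n = 7, smallest possible p 0.0556; 0.667 adjusted over the 4 ratios).

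Il1rn, the receptor antagonist gene, stood at 121 and 153 FPKM in wild-type and 146 and 78.7 FPKM in GdX-deficient libraries at 90 min. By 6 h the values were 142 and 187 FPKM in wild type and 88.7 FPKM in the GdX-deficient library. The genotypes overlapped at 90 min, and at 6 h the GdX-deficient library lay below both of wild type. The log2 fold change at 6 h was -0.87 (SE 0.40, adjusted p = 0.190 in limma). With time as a covariate, 3 GdX-deficient against 4 wild-type libraries gave -0.55 (SE 0.26, adjusted p = 0.201 in limma). That difference passed the threshold only in the fit without replicate 1 of the GdX-deficient group at 90 min (-0.82, limma adjusted p = 0.0446). The gene total joins the secreted and the intracellular forms, which start at different first exons.

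Set against its agonists, Il1rn amounted to 0.2996 and 0.438 of the sum of Il1a and Il1b in wild type at 90 min and to 1.41 and 1.10 of it at 6 h. The GdX-deficient libraries gave 0.485 and 0.6001 at 90 min and 0.565 at 6 h. At 90 min both GdX-deficient ratios were above both of wild type, and at 6 h the GdX-deficient ratio was below both. The genotype difference in log2 ratio was 0.57 at 90 min and -1.14 at 6 h. Averaged over the times it was -0.28, and an exact permutation test within times gave p = 0.667 (two-sided, n = 7, 18 arrangements, smallest possible p 0.0556). Adjusted over the 4 ratios examined, p was 0.667.

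**Figure D2:**
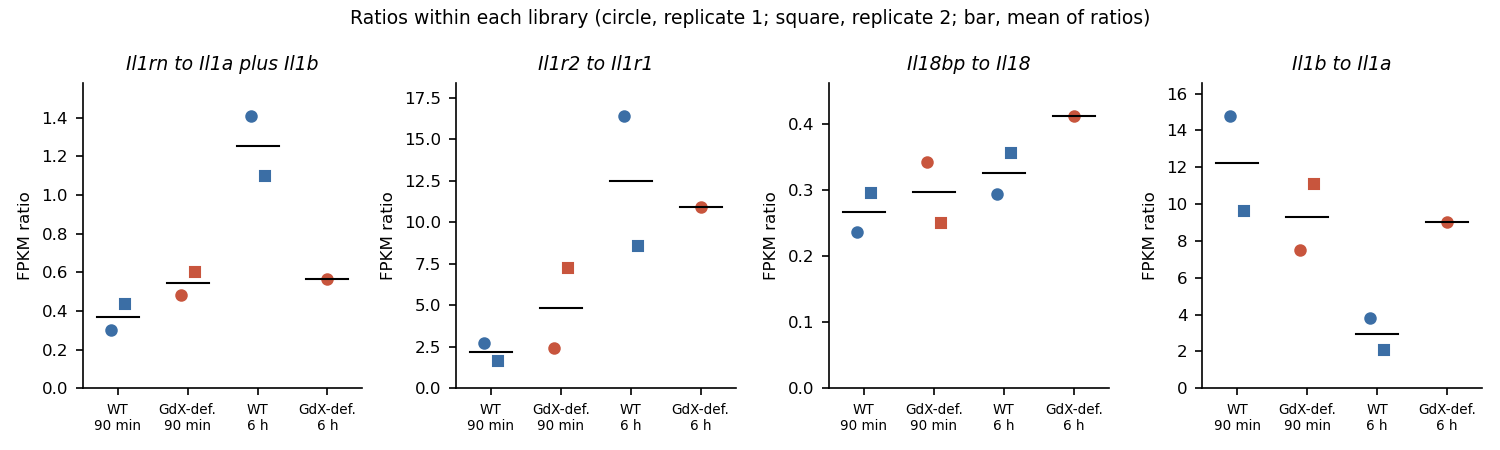
Ratios of FPKM values within each library (linear axes from 0), with 1 point per library and a bar at the mean of the ratios. The Il1rn to agonist ratio of wild type is under 0.5 at 90 min and above 1 at 6 h, and that of the GdX-deficient libraries lies between 0.485 and 0.6001.

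Il1r2, the decoy receptor gene, stood at 19.4 and 16.1 FPKM in wild-type and 16.8 and 30.7 FPKM in GdX-deficient libraries at 90 min. The later libraries had 42.4 and 42.3 FPKM in wild type and 52.6 FPKM in the GdX-deficient library. All 3 libraries at 6 h lay above all 4 at 90 min, as they did for 3 of the 9 members (Il1r2, Il18 and Il18bp) and 13.5% of all tested genes. The rise in wild type had a log2 fold change of 1.21 (SE 0.31, adjusted p = 0.0396 in limma). In GdX-deficient spleen the log2 fold change was 1.17 (SE 0.38, adjusted p = 0.388 in limma), which did not pass. The difference of the genotype effect between times was -0.04 (SE 0.50, adjusted p = 0.994 in limma), and it lay at 0.03 after quantile normalization. The wild-type call was lost without replicate 1 (limma adjusted p = 0.0928) or replicate 2 (0.191) of the 90 min group, without a filter on low values (0.0952), after quantile normalization (0.0623) and after removal of globin genes (0.0945), with log2 fold changes between 1.04 and 1.34 in every setting.

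The single high Il1r2 value at 90 min, 30.7 FPKM, was in the GdX-deficient library with the highest sum of neutrophil markers. Neutrophils are known to carry this decoy receptor. Without that library the 90 min genotype difference of 0.35 (SE 0.31, adjusted p = 0.679 in limma) was -0.07. At 6 h neutrophil markers summed to 2661 FPKM in the GdX-deficient and 1172 and 814 FPKM in the wild-type libraries, while wild type at 90 min had 1285 and 821 FPKM. The part of neutrophils in the Il1r2 level was not tested at either time.

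Il1r1, the signalling receptor gene, stood at 7.16 and 9.67 FPKM in wild-type and 6.91 and 4.23 FPKM in GdX-deficient libraries at 90 min. At 6 h it stood at 2.58 and 4.93 FPKM in wild type and 4.81 FPKM in the GdX-deficient library. The wild-type libraries were lower at 6 h than at 90 min without overlap, with a log2 fold change of -1.02 (SE 0.36, adjusted p = 0.103 in limma). This difference passed the threshold without replicate 2 of wild type at 6 h (-1.38, limma adjusted p = 0.0211) and after removal of a trend on transcript length (-0.99, limma adjusted p = 0.0498). Without replicate 1 of wild type at 6 h it was -0.65, and over all settings the limma adjusted p ran from 0.0211 to 0.446. The genotype difference was -0.54 at 90 min (SE 0.36, adjusted p = 0.637 in limma). At 6 h the GdX-deficient value lay between those of wild type, and the estimate of 0.33 turned to -0.23 after quantile normalization and to -0.22 after removal of the length trend. Endothelial and stromal markers, from cells known to carry this receptor, summed over 9 genes to 92.6 and 84.5 FPKM in wild-type and 58.4 and 60.9 FPKM in GdX-deficient libraries at 90 min. At 6 h they summed to 43.9 and 69.1 FPKM in wild type and 100.02 FPKM in the GdX-deficient library, and Lum was listed at 0 in 1 wild-type library. Their part in the Il1r1 level was not tested.

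Set against each other, the decoy exceeded the signalling receptor in every library. Il1r2 was 2.72 and 1.66 times Il1r1 in wild type at 90 min and 16.4 and 8.58 times at 6 h. In GdX-deficient spleen it was 2.44 and 7.25 times at 90 min and 10.9 times at 6 h. The genotypes overlapped at both times (mean log2 difference 0.43, exact permutation p = 0.556, two-sided, n = 7, smallest possible p 0.0556).

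Il1rap, the shared accessory protein gene, was low throughout, at 1.49 and 2.30 FPKM in wild-type and 2.90 and 3.31 FPKM in GdX-deficient libraries at 90 min. By 6 h Il1rap was at 0.88 and 3.30 FPKM in wild type and 6.47 FPKM in the GdX-deficient library. The GdX-deficient libraries were above those of wild type at both times. The log2 fold change was 0.52 at 90 min (SE 0.39, adjusted p = 0.654 in limma) and 1.39 at 6 h (SE 0.48, adjusted p = 0.104 in limma). It was 0.87 with time as covariate (SE 0.32, adjusted p = 0.133 in limma). The 6 h estimate depended on which wild-type library was used, at 1.99 without replicate 2 and 0.80 without replicate 1. Each of these sets 1 library against 1. The gene total joins membrane-bound and soluble forms.

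Il1r1, Il1rap and Il18r1 have the longest transcripts of the 9 genes, with mean lengths of 5326, 3616 and 2605 bases, and each had its lowest value in wild-type replicate 1 at 6 h. In that library they stood at 2.58, 0.88 and 1.33 FPKM, against 4.93, 3.30 and 2.92 FPKM in replicate 2. After removal of the trend on transcript length, the genotype estimates at 6 h were 0.97 for Il1rap and 0.36 for Il18r1, against 1.39 and 0.65 before.

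Il18, whose product is made as a stored precursor, had the tightest replicates of the ligands. It stood at 51.0 and 52.2 FPKM in wild-type and 43.6 and 45.9 FPKM in GdX-deficient libraries at 90 min. The 6 h libraries had 68.7 and 68.8 FPKM in wild type and 80.9 FPKM in the GdX-deficient library. The GdX-deficient libraries were below wild type at 90 min and above it at 6 h, but the 90 min estimate of -0.20 (SE 0.23, adjusted p = 0.735 in limma) lay at 0.00295 after removal of globin genes and 0.08 after removal of the length trend. At 6 h the estimate was 0.23 (SE 0.28, adjusted p = 0.604 in limma). The difference between 6 h and 90 min was 0.41 in wild type (SE 0.23, adjusted p = 0.280 in limma) and 0.84 in GdX-deficient spleen (SE 0.28, adjusted p = 0.411 in limma). All 3 libraries at 6 h exceeded all 4 at 90 min, and no test passed. The span of Il18 overlaps the genes Bco2 and Tex12, and how overlapping fragments were divided is not given in the sources used here.

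Il18bp, the gene of the soluble IL-18 inhibitor, stood at 12.1 and 15.5 FPKM in wild-type and 15.0 and 11.5 FPKM in GdX-deficient libraries at 90 min. By 6 h Il18bp had 20.2 and 24.5 FPKM in wild type and 33.4 FPKM in the GdX-deficient library. The genotypes overlapped at 90 min, and at 6 h the GdX-deficient library was 1.49-fold the wild-type mean (log2 fold change 0.56, SE 0.35, limma adjusted p = 0.309). The values at 6 h were above all those at 90 min, with a log2 fold change of 0.66 in wild type (SE 0.28, adjusted p = 0.160 in limma) and 1.29 in GdX-deficient spleen (SE 0.35, adjusted p = 0.257 in limma). Against its ligand, Il18bp amounted to 0.237 and 0.296 of Il18 in wild type and 0.343 and 0.250 in GdX-deficient libraries at 90 min, and to 0.295 and 0.355 in wild type and 0.412 in the GdX-deficient library at 6 h. The mean log2 difference between genotypes was 0.25 (exact permutation p = 0.222, two-sided, n = 7, smallest possible p 0.0556).

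Il18r1, the ligand-binding receptor gene, stood at 2.97 and 3.36 FPKM in wild-type and 5.05 and 6.30 FPKM in GdX-deficient libraries at 90 min. The level at 6 h was 1.33 and 2.92 FPKM in wild type and 3.75 FPKM in the GdX-deficient library. Il18r1 and Il1rap were the members that stood higher in the GdX-deficient libraries at both times without overlap. Of all tested genes, 32.1% were apart in the same direction at both times, higher or lower. The log2 fold change was 0.68 at 90 min (SE 0.32, adjusted p = 0.621 in limma), 0.65 at 6 h (SE 0.40, adjusted p = 0.303 in limma) and 0.67 with time as covariate (SE 0.25, adjusted p = 0.135 in limma). Quantile normalization lowered the 6 h value to 0.06. The natural killer cell markers, 7 genes, summed to 185 and 172 FPKM in wild-type and 205 and 238 FPKM in GdX-deficient libraries at 90 min, and to 253 and 194 FPKM in wild type and 272 FPKM in the lone GdX-deficient library at 6 h. These sums were higher in the GdX-deficient libraries at both times. Gzma made up much of each sum and overlapped between the genotypes. It was at 106.5 and 88.8 FPKM in wild-type and 106.2 and 116 FPKM in GdX-deficient libraries at 90 min. At 6 h it was at 193 and 135 FPKM in wild type and 153 FPKM in the GdX-deficient library. Of the 7 markers, 7 had a higher estimate in GdX-deficient spleen at 90 min and 6 at 6 h, with 0 passing in limma. Over time in wild type 1 was higher and 6 were lower. The T cell markers, also 7 genes, summed to 369 and 313 FPKM in wild-type and 268 and 344 FPKM in GdX-deficient libraries at 90 min, which overlap, and to 157 and 136 FPKM against 295 FPKM at 6 h. The part of either cell type in the Il18r1 level was not tested.

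**Figure D3:**
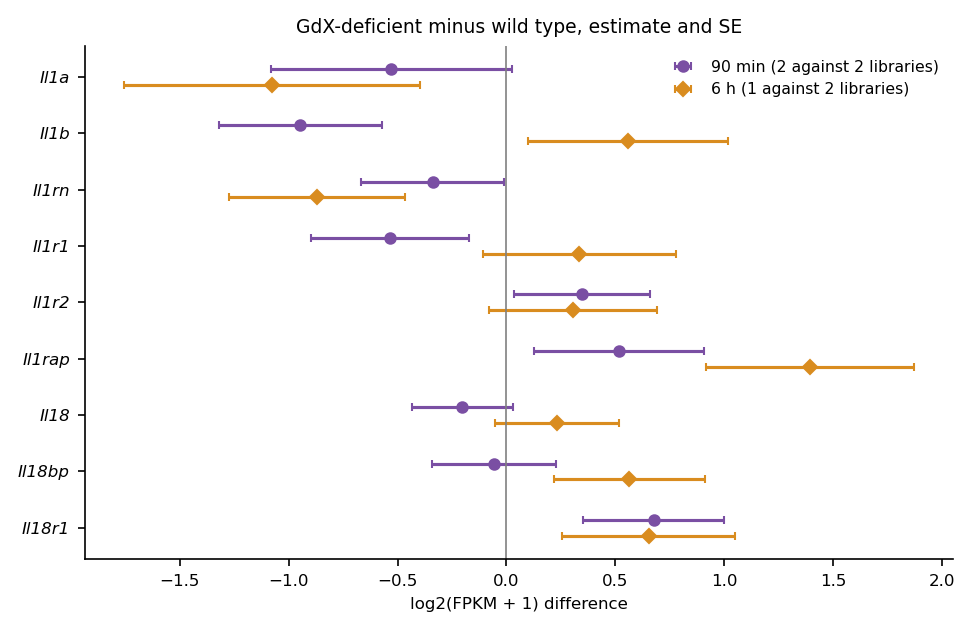
Genotype difference of each member on the log2(FPKM + 1) scale, GdX-deficient minus wild type, with the moderated standard error, at 90 min and at 6 h. Il1b lies at -0.95 at 90 min and 0.56 at 6 h, and Il1rap and Il18r1 lie above 0 at both times; none of the differences passed the threshold.

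Counted over the members, 0 of 9 passed between genotypes at 90 min, where limma called 0.0176% of the 11378 genes tested. An unadjusted p under 0.05 was reached by 1 member, Il1b, and by 7.58% of all tested genes. The libraries did not overlap for 5 members, 2 higher (Il1rap, Il18r1) and 3 lower (Il1b, Il1r1, Il18) in GdX-deficient spleen, where 24.1% and 23.4% of all tested genes were apart in these directions. The median log2 fold change was -0.20 over the members and 0.07 over all tested genes. The direction of Il1a, Il1rn, Il1r2 and Il18bp turned when GdX-deficient replicate 2 was left out, to 0.28, 0.10, -0.07 and 0.12, and that of Il18bp also without replicate 2 of wild type (0.11).

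**Figure D4:**
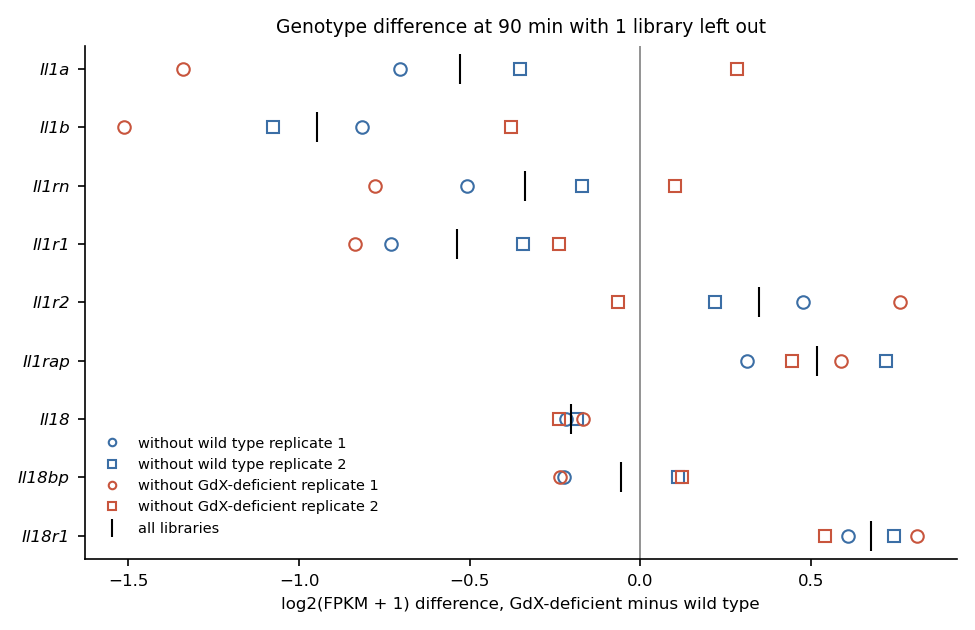
Genotype difference at 90 min (log2(FPKM + 1), GdX-deficient minus wild type) for each member with all libraries and with each of the 4 libraries of that time left out. Leaving out GdX-deficient replicate 2 moves Il1a to 0.28 and Il1rn to 0.10, while Il18r1 and Il1rap stay above 0 and Il1b and Il1r1 below 0 in all 4 cases.

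Between genotypes at 6 h, 0 of 9 passed, where limma called 3.96% of all genes, 2.91% higher and 1.05% lower, and 1 member, Il1rap, had an unadjusted p under 0.05, as did 28.41% of all genes. This fit takes the spread from the 3 groups with 2 libraries, so the lone GdX-deficient library is assumed to vary like them, and the difference has no replicate check of its own. The GdX-deficient library lay above both of wild type for 6 members and below both for Il1a and Il1rn, where 54.9% and 25.3% of all genes were so placed. The median was 0.33 over the members and 0.32 over all genes. Of all tested genes 66.2% had a higher estimate in the GdX-deficient library at 6 h, as did 7 of 7 B cell and 7 of 7 T cell markers (2 passing in each list), 6 of 6 monocyte markers (1 passing), 9 of 9 red pulp macrophage markers (3 passing) and 6 of 6 dendritic cell markers (1 passing). The other lists had members in both directions, with 7 of 9 red cell (4 passing), 8 of 10 neutrophil, 6 of 7 NK cell and 7 of 8 endothelial and stromal markers higher (0 passing in the last 3 lists). Their part in the members' values was not tested. With time as covariate 0 of 9 passed, where limma called 0.0439%, 0.0352% higher and 0.00879% lower. There, 2 members (Il1rap and Il18r1) had an unadjusted p under 0.05, as did 26.99% of all genes, and the medians were -0.03 over the members and 0.16 over all genes.

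Between times in wild type, 2 of 9 passed, Il1r2 higher and Il1b lower at 6 h, where limma called 10.7% of all genes, 4.39% higher and 6.32% lower. An unadjusted p under 0.05 was reached by 4 members, Il1r1 and Il18bp besides these, and by 28.67% of all genes. The libraries did not overlap for 3 members higher at 6 h (Il1r2, Il18, Il18bp) and 3 lower (Il1b, Il1r1, Il18r1), where 30.3% and 27.6% of all genes were apart in these directions. In GdX-deficient spleen 0 of 9 passed, where limma called 0% of all genes, and Il18bp, Il1r2 and Il18 had an unadjusted p under 0.05, as did 8.0% of all genes. The 6 h library lay above both 90 min libraries for 4 members (Il1r2, Il1rap, Il18, Il18bp) and below both for Il18r1, where 56.8% and 15.8% of all genes were so placed. For the difference of the genotype effect between times, 0 of 9 passed, where limma called 0.0703%, 0.0352% in each direction, and Il1b alone of the members had an unadjusted p under 0.05, as did 9.98% of all genes.

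**Figure D5:**
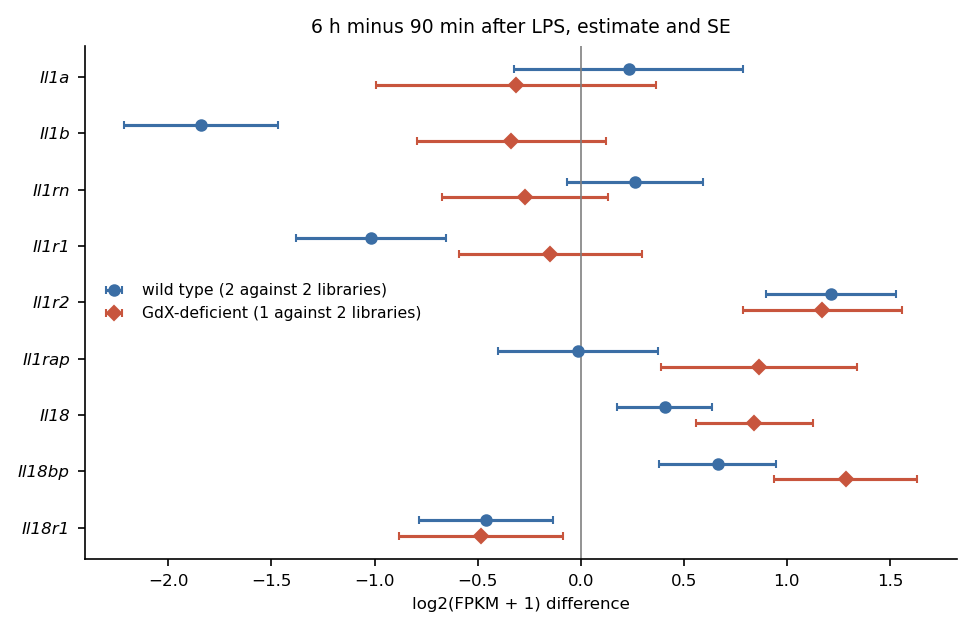
Change from 90 min to 6 h after LPS on the log2(FPKM + 1) scale with the moderated standard error, in wild type and in GdX-deficient spleen. Il1b lies at -1.84 in wild type and -0.34 in GdX-deficient spleen, and Il1r2 at 1.21 and 1.17.

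Other genes of the pathway were taken from 3 lists, and the share of all tested genes that limma called ran from 0% to 10.7% over the comparisons. Of 16 symbols listed for other IL-1 family ligands and receptors, 8 were in the table and 6 were tested, and of these 0 rose and 0 fell in each of the 6 comparisons (limma, between 0 and 3 with an unadjusted p under 0.05). Their median was 0.07 between genotypes at 90 min and 0.74 at 6 h. Of 21 receptor signalling genes, 19 were tested. Among them Map3k8, a kinase that passes the signal to the ERK pathway, fell in wild type from 38.9 and 52.9 FPKM at 90 min to 10.5 and 23.8 FPKM at 6 h (log2 fold change -1.46, SE 0.40, limma adjusted p = 0.0492). It stood at 61.1 and 36.9 FPKM at 90 min and 17.1 FPKM at 6 h in GdX-deficient spleen. It was the single call among the 19 signalling genes, where 6.32% of all genes fell in that comparison. Of the 10 genes for maturation of IL-1 beta and IL-18, which include the caspase-1 inflammasome, 0 passed in any of the 6 comparisons with limma. An unadjusted p under 0.05 was reached by 2 of them between genotypes at 90 min, 5 at 6 h and 4 with time as covariate, by 4 over time in wild type and 2 in GdX-deficient spleen, and by 0 for the difference between times. The shares of all genes at that level, in the same order, were 7.58%, 28.41%, 26.99%, 28.67%, 8.0% and 9.98%. Their median genotype difference was 0.43 at 90 min and 0.75 at 6 h, against 0.07 and 0.32 over all genes. Il18rap, the signalling partner of IL-18R1, was chosen for mention after its values were known. It stood at 3.30 and 4.09 FPKM in wild-type and 5.81 and 8.35 FPKM in GdX-deficient libraries at 90 min, and at 3.09 and 6.09 against 7.98 FPKM at 6 h. Like Il18r1 it was higher in the GdX-deficient libraries at both times, with a log2 fold change of 0.76 with time as covariate (SE 0.27, adjusted p = 0.123 in limma). Separation in the same direction at both times, higher or lower, was seen in 32.1% of all tested genes.

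Across the 7 libraries, some members varied together on the log2(FPKM + 1) scale. These correlations are a description over libraries that share genotype, time and scaling. Il1a and Il1rn had a Pearson's r of 0.94, Il1b and Il1r1 of 0.92 and Il18 and Il18bp of 0.92. Il1b had an r of 0.27 with Il1a and 0.12 with Il1rn, and of -0.85 with Il1r2. Among all tested named genes, those most like Il1b were Uap1 (r = 0.99), Fos (0.98) and Gpr183 (0.97), and those most like Il18 were Dram1 (0.99), Gata2 (0.99) and Fam167b (0.99). An r over 0.95 was reached by 21 genes with Il1b and by 42 with Il18.

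The promoters of the ligands, the inhibitors and the decoy receptor are shown because Il1b and Il1r2 changed with time in opposite directions, and because Il1a with Il1rn and Il18 with Il18bp varied together. Il1a and Il1b lie close to each other on chromosome 2, which also carries Il1rn, and the receptor genes Il1r2, Il1r1 and Il18r1 lie in a cluster on chromosome 1. All 9 members matched RefSeq promoter entries of GRCm38.p6, with 14 windows of 250 bases before to 50 after a start. Each is written 5′ to 3′ on the gene's strand. Capitals mark matches on either strand to 7 motifs: the kappaB site of NF-kB by its consensus, AP-1 (TGANTCA), C/EBP (TTGCNNAA), the PU.1 core (GAGGAA), the interferon gamma element GAS (TTCNNNGAA), the interferon element ISRE (GAAA, any 2 bases, then GAAA) and the TATA box (TATAAA).
Il1a promoter (chr2:129309923-129310222, minus strand): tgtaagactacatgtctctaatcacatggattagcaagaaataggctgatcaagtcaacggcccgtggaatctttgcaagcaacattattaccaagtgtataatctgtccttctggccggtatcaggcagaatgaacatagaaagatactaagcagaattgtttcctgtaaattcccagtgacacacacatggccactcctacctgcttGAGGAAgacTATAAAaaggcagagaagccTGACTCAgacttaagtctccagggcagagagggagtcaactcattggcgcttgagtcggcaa
Il1b promoter (chr2:129371090-129371389, minus strand): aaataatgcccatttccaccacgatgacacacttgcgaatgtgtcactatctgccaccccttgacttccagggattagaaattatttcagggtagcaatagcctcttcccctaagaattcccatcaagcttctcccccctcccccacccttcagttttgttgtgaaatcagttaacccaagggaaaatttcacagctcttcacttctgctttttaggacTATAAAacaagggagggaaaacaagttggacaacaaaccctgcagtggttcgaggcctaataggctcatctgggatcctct
Il1rn promoter, most upstream start (chr2:24336610-24336909, plus strand): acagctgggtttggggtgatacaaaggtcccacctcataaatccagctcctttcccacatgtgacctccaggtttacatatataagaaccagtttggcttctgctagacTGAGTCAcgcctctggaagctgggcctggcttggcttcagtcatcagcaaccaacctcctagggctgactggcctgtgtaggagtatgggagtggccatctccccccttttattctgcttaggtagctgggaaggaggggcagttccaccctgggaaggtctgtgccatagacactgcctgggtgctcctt
Il1r2 promoter (chr1:40085843-40086142, plus strand): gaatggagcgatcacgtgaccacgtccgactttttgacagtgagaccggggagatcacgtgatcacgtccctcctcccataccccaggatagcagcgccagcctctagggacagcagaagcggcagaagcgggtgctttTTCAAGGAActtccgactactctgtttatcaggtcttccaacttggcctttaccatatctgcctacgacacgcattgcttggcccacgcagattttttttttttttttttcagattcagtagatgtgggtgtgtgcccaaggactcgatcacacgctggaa
Il18 promoter (chr9:50554450-50554749, plus strand): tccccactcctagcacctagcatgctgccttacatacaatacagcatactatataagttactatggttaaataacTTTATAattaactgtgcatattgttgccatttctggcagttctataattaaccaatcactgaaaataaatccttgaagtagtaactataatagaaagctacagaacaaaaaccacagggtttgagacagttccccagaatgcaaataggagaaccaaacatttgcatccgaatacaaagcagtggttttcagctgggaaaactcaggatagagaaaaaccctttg
Il18bp promoter (chr7:102018183-102018482, minus strand): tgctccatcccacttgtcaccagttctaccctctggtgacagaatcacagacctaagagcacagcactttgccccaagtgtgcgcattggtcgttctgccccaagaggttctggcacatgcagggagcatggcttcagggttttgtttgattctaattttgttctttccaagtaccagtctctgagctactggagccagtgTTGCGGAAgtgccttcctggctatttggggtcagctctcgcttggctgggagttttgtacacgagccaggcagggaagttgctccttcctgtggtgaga

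In these windows, positions are counted from +1 at the start, with the base before it at -1. The Il1a window held a TATA box at -32 to -27, a PU.1 core at -41 to -36 and an AP-1 match at -12 to -6. The Il1b window held a TATA box at -31 to -26, in nearly the same place. The window of the most upstream Il1rn start held an AP-1 match at -141 to -135, and the windows of its other starts held none. The Il1r2 window held a GAS match at -111 to -103. The Il18 window held a TATA box letter match on the other strand at -175 to -170, and the Il18bp window a C/EBP match at -49 to -42. Among 32851 promoter windows of the same length, 13.6% held the TATA box letters, 7.81% the AP-1, 28.3% the PU.1, 8.30% the GAS, 10.8% the C/EBP, 4.51% the kappaB and 3.44% the ISRE match. A kappaB match was found in 1 of the 14 member windows, the downstream Il1r1 start. These matches describe letters in the windows, not binding.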

How the data were processed

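RNA from 7 mouse spleens was sequenced on a BGISEQ-500, per the labels' protocols, which name both poly(A) selection and rRNA depletion without saying which was used. Per the file headers, the authors deposited 1 FPKM value per gene and library. The submitters' processing notes name HISAT2 2.0.4, Bowtie2, RSEM and GRCm38.p5, without their roles. Strand use in counting is not given in the sources used here, so antisense or overlapping transcripts cannot be told apart from a member.

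Depth was estimated from the steps of low FPKM values of genes with 1 transcript and is approximate. After a log2(FPKM + 1) transform, limma 3.58.1 in R 4.3.3 was run on the 11378 genes whose mean FPKM reached 1, all 9 members among them (trend on mean expression, two-sided, Benjamini-Hochberg over all tested genes, threshold 0.05). The fit had 1 mean per group. Genotype with time as covariate was an additive model. Ratios were tested by exact permutation within times. The log2 scale with pseudocount 1 understates changes of low genes. The limma fits were run on simulated data with independent noise for each gene and library. Shifts shared by many genes of a library were not simulated, so that check does not cover them.

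Each library is a different mouse. The members, the lists of pathway and marker genes and the rules were chosen with earlier results of these data known. By the rule for naming, the text gives the 9 members, pathway genes past the threshold (up to 6 per comparison by p), and the 3 genes most correlated with Il1b and with Il18. A marker is named where it is listed at 0 (Lum) or to show what a marker sum rests on (Gzma and the neutrophil markers). The latter were chosen after their values were seen. Outside the rule stand Il18rap, chosen after its values were seen, Ubl4a and Gm44504, given to check the genotype labels, and Bco2 and Tex12, which overlap Il18. Alternatives were a pseudocount of 0.1, no filter or a minimum mean FPKM of 5, quantile normalization, removal of globin genes, the replicate number as a block, only the compared libraries, each library left out and, added after the data were seen, removal of a transcript length trend. Promoters and gene positions were taken from RefSeq (GRCm38.p6).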

Additional observations from a re-analysis of the deposited data

Results flagged for a closer look

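For Il1b and Il18 the genotypes stood apart at both times in opposite directions, with GdX-deficient libraries lower at 90 min and higher at 6 h. For Il1b the genotype difference at 6 h minus that at 90 min came to 1.504 in log2 units (SE 0.59, adjusted p = 0.422 and unadjusted p = 0.0307 in limma). It stayed above 0 in every setting, between 0.94 and 2.07, the values with replicate 2 or replicate 1 of the GdX-deficient libraries at 90 min left out. For Il18 it was 0.43 (SE 0.37, limma adjusted p = 0.801), and its 90 min difference of -0.20 turned to 0.00295 when globin genes were removed. Such opposite separation was seen in 2 of the 9 members and in 7.79% of all tested genes. The 6 h side rests on 1 GdX-deficient library.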

How the results depend on the processing

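With limma over all tested genes, the number called between genotypes at 90 min was 2, and 0 after removal of globin genes or of the length trend, 181 in a fit of only the compared libraries and 2 to 183 with 1 library left out. At 6 h 450 genes were called, and 90 without a filter, 233 with a mean FPKM of at least 5, 270 after quantile normalization, 248 without globin genes, 885 with only the compared libraries, 1150 without the length trend and 627 to 3035 with 1 library left out. With time as covariate 5 were called, 2 without globin genes and 2 to 1674 with 1 library left out. Over time in wild type 1218 were called, and 635 without a filter, 699 without globin genes, 2425 without the length trend and 450 to 1774 with 1 library left out. In GdX-deficient spleen 0 were called (910 at an unadjusted p under 0.05), and 22 without a filter, 251 with only the compared libraries, 3 without the length trend and 0 to 236 with 1 library left out. For the difference between times 8 were called, and 0 with a pseudocount of 0.1, with a mean of at least 5 or without globin genes, 3 without a filter, 4 after quantile normalization, 45 without the length trend and 0 to 238 with 1 library left out. The cause of these shifts was not tested.

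Of the members, 0 were called between genotypes in the fits that kept all libraries and had no block. With time as covariate, 0 to 1 were called with 1 library left out. At 6 h, leaving out a wild-type library sets 1 library against 1, so no count is given. Over time in wild type 2 were called, 0 without a filter, 1 after quantile normalization or without globin genes and 1 to 3 with 1 library left out.

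Deviations of same-numbered libraries had a correlation of -0.12 between the genotypes at 90 min, 0.77 between the times in wild type and 0.08 between GdX-deficient spleen at 90 min and wild type at 6 h. No label says that the numbers pair the mice, and not every correlation was above 0.1, so they were not treated as pairs. With the replicate number as a block, the calls were 3383 at 6 h, 12 with time as covariate, 2345 over time in wild type, 37 in GdX-deficient spleen and 80 for the difference. Il1rap was then 1 member called at 6 h (1.68, limma adjusted p = 0.0150). The block turned the difference between times to 0.053 for Il1r2 and 0.17 for Il18r1.

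Some estimates changed sign with another setting. At 90 min Il18 was 0.00295 and Il18bp 0.14 without globin genes, and 0.083 and 0.046 without the length trend. At 6 h Il1r1 was -0.23 after quantile normalization and -0.22 without the length trend. With time as covariate Il18 was 0.10 after quantile normalization, 0.20 without globin genes and 0.21 without the length trend, and Il1r1 was 0.00285 without globin genes. Il1rap over time in wild type was 0.15 after quantile normalization. The difference between times was 0.073 for Il18r1 with a pseudocount of 0.1, and for Il1r2 0.035 after quantile normalization and 0.031 without globin genes.

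With 1 library left out, the ranges that crossed 0 were these. At 90 min Il1a ran from -1.34 to 0.28, Il1rn from -0.78 to 0.10, Il1r2 from -0.067 to 0.76 and Il18bp from -0.24 to 0.12. At 6 h Il1r1 ran from -0.029 to 0.70. With time as covariate Il1b ran from -0.95 to 0.089, Il1r1 from -0.54 to 0.048, Il18 from -0.20 to 0.032 and Il18bp from -0.057 to 0.34. Over time in wild type Il1a ran from -0.45 to 0.92 and Il1rap from -0.61 to 0.59. In GdX-deficient spleen Il1a ran from -1.13 to 0.50, Il1b from -0.90 to 0.23, Il1rn from -0.71 to 0.17 and Il1r1 from -0.45 to 0.15. For the difference between times Il1a ran from -1.36 to 0.26, Il1r2 from -0.46 to 0.37 and Il18r1 from -0.40 to 0.35. The log2 ratio differences ran from -0.42 to 0.57 for Il1rn over agonists, 0.04 to 0.98 for Il1r2 over Il1r1, 0.13 to 0.36 for Il18bp over Il18 and -0.39 to 0.87 for Il1b over Il1a. Of 753 alternative values of members, 699 kept their direction and their side of the threshold. Many of these could not change direction, so the count does not measure stability. Another filter does not move an estimate. With 1 mean per group, neither does fitting only the compared libraries or leaving out a library of another group. Most of the values were also not past the threshold to begin with.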
